A study of Mus musculus with 6 samples.

Results

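The genes described here are 10 that govern whether a resting cell starts to divide: Myc, Ccnd1, Ccnd2, Ccne1, Cdk6 and E2f1, which drive cell cycle entry, and Cdkn1a, Cdkn1b, Cdkn2a and Cdkn2b, which hold it back. They were listed by name, with earlier results of these data known, out of 21938 protein-coding genes with an annotated start. Chromatin accessibility was read in 2 ways, from the transposase cut sites within 1 kb of each of their starts and from the cut sites in 500 bp tiles over each gene and the 50 kb on either side of it (500 kb for Myc). The annotation gave the 10 genes 19 distinct coding starts, of 35003 in the genome.

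The assay was single-cell ATAC-seq, in which a transposase cuts accessible DNA in nuclei and droplets then mark the fragments of each nucleus with a barcode. All mice, in both groups, carried Krt5Cre ER, a tamoxifen-inducible Cre under the control of Krt5, and the reporter LSL-YFP/LSL-YFP at Rosa26, so that basal cells and whatever they gave rise to after labelling were marked by YFP. Cells that were YFP-positive and negative for propidium iodide, a dye that enters dead cells, were sorted from the dorsal olfactory epithelium and are labelled horizontal basal cells. The controls gave 3 libraries, and the other 3 came from mice 24 h after methimazole, a drug that kills much of the olfactory epithelium while sparing horizontal basal cells. In both groups, mice were 8 weeks old in replicate 1, 6 weeks in replicate 2 and 6 to 7 weeks in replicate 3. The labels call the replicates biological but do not say how many animals entered each library, so the p-values measure the spread between these libraries.

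Horizontal basal cells are the reserve stem cells of the olfactory epithelium. They are mostly quiescent, and severe injury makes them divide and rebuild the tissue. In the textbook account of cell cycle entry, mitogenic signals raise Myc and the D-type cyclins, the D-type cyclins activate Cdk4 and Cdk6, these phosphorylate the retinoblastoma protein, and the E2F factors so released switch on cyclin E and the genes of DNA replication. The Cdkn1 and Cdkn2 proteins inhibit these kinases.

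Shown first are 2 of the tiles that opened, because each lies away from a gene's start and was far less open before injury. They are the tile with the smallest p beside Cdk6 and beside Ccnd1. The middle 300 bases of each are printed 5′ to 3′ on the plus strand of GRCm38, from the RefSeq assembly, with matches to the AP-1 motif TGANTCA in capitals. AP-1 is the family of Fos and Jun factors.
Cdk6, chr5:3301101-3301400: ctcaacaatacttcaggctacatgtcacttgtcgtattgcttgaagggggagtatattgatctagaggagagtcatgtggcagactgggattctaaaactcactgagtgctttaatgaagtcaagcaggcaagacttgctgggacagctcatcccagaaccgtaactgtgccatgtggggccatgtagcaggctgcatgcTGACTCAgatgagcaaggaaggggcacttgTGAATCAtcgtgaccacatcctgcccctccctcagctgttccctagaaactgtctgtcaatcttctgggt
Ccnd1, chr7:144964101-144964400: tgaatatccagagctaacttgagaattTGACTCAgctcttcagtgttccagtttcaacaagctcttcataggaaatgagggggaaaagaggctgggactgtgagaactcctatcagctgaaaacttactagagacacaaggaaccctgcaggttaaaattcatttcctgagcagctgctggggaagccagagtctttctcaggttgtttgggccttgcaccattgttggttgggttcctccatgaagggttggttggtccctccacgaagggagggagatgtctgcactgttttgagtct
The Cdk6 stretch held 2 matches and the Ccnd1 stretch 1, while the full 500 bp tile held 2 at each. A match is a run of letters and not a measured binding site.

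The 6 libraries held 4476 barcodes with at least 2000 fragments, 1972 uninjured and 2504 injured, and 420 to 1338 in each library. Their cut sites numbered 14825320 to 44875242 a library, and the median barcode had 8710 to 21702 fragments. The replicate 3 libraries of both groups shared 34 cell barcodes, while each of the other 14 pairs of libraries shared 0 to 4. In those 34, 82002 fragments were identical in both libraries, 5.97% of the uninjured and 4.38% of the injured fragments in them. Shares were higher in some other pairs. The 4 barcodes of uninjured replicate 1 and injured replicate 2 had 17298, 20.6% of the uninjured fragments. The 3 of uninjured replicate 2 and injured replicate 2 had 9890, 33.6% of the uninjured fragments. In injured replicate 2, a single barcode of 1746401 fragments held 14.7% of the library's fragments. Only 14.5% of its cut sites were in open tiles, against 79.1% in the library's median barcode. This deepest barcode is the 1 that injured replicates 1 and 2 shared, with 5480 identical fragments, 91.7% of those in replicate 1. The alternative without shared barcodes drops every barcode shared by any pair of libraries, and so this one too. Levels are given as CPM, the usual scale of cut sites counted relative to the normalized total of the library. Of the horizontal basal cell markers, Krt5 had 31.0 CPM at its start in uninjured and 28.0 in injured libraries, and Krt14 had 27.0 and 34.6. Krt15 had 7.80 and 5.37, without overlap and not called (edgeR adjusted p = 0.183), and the starts of Trp63 had 0.792 and 4.18 before injury and 1.08 and 3.05 after. The summed level at the 6 such markers was 122 to 171 CPM in uninjured libraries and 102 to 142 in injured ones, and 1 of their 8 windows, that of Icam1, was lower (log2 -0.70, edgeR adjusted p = 0.0196). The summed level at 6 sustentacular genes was 17.1 to 32.4 CPM in uninjured libraries and 10.9 to 12.2 in injured ones, with Ermn lower (log2 -1.37, edgeR adjusted p = 0.0037). Sums cover only windows that passed the filter on low counts. Of 6 immune genes 4 had such a window, and their sum was 1.05 to 1.61 and 1.69 to 3.61. For 4 respiratory genes it was 30.7 to 39.8 and 25.3 to 39.0, with Muc5ac higher (log2 2.17, edgeR adjusted p = 0.0455), and for 4 microvillar and ionocyte genes 18.1 to 21.4 and 18.1 to 24.6. For 6 genes of immature neurons and precursors it was 38.1 to 55.3 and 42.4 to 55.6. For 4 stromal and endothelial genes, over the 9 of their 11 windows that passed, it was 52.8 to 63.4 and 58.6 to 64.3. At 6 olfactory sensory neuron genes the sum was 38.0 to 47.4 CPM in uninjured libraries, and 38.3, 37.0 and 73.7 in injured replicates 1 to 3, so that injured replicate 3 stood apart. The immune marker Tyrobp had 0 cut sites in uninjured replicate 1. The part of these shifts in the results below was not tested, and a change in the share of cells open at a site cannot be told apart from a change within each cell.

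Levels at the starts can be set side by side, since all windows have the same length. Taking each gene at its most open start and all 6 libraries, the order was Cdkn1b (38.7 CPM), Myc (35.3), E2f1 (33.2), Cdkn1a (31.7), Ccne1 (30.5), Cdk6 (28.7), Cdkn2b (18.9), Ccnd2 (15.8), Ccnd1 (8.68) and Cdkn2a (8.67). The ranges of the libraries overlapped between neighbours among the first 6, between Cdkn2b and Ccnd2 and between the last 2, but not between Cdk6 and Cdkn2b or between Ccnd2 and Ccnd1. This order pools both groups, and it differed between them. Myc had a mean of 38.8 CPM before injury, but its 31.8 after injury lay below E2f1 (34.6) and Cdkn1a (33.7). Cdkn2a lay above Ccnd1 before injury (9.03 and 7.45) and below it after (8.30 and 9.91).

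At their starts, none of the 10 genes changed past the threshold in the fit of 3 libraries against 3, while the fit with the replicate number as a block called 2 Myc windows lower, beside 5.84% of all windows lower and 4.64% higher in that fit. All 19 start windows passed the filter on low counts, and in edgeR's quasi-likelihood test 0 had an adjusted p under 0.05, beside 2.42% of 26552 windows higher and 1.81% lower (4.23% in all) across the genome. At an unadjusted p under 0.05 in edgeR's test there were 2, both at Myc, beside 5767 of the 26552 windows. DESeq2's test called 1 of them, beside 3.83% of all windows higher and 3.35% lower in that test. The injured and uninjured libraries did not overlap at 4 of the 19, against 27.4% of all windows. The median log2 difference, injured over uninjured, was -0.09 over the 19 and 0.02 over all windows tested. All values are relative to the typical start window. Scaling on 10 kb bins of the whole genome instead moved the median of all windows to -0.47. It left 10 of the 19 lower and 0 higher, with 506 windows higher and 11560 lower in the genome. Of each library's cut sites, 79.5%, 75.6% and 77.9% were in open tiles in uninjured replicates 1 to 3. In injured replicates 1 to 3 these were 72.4%, 66.8% and 74.6%. The part of this difference in the calls under other scalings was not tested.

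**Figure D1:**
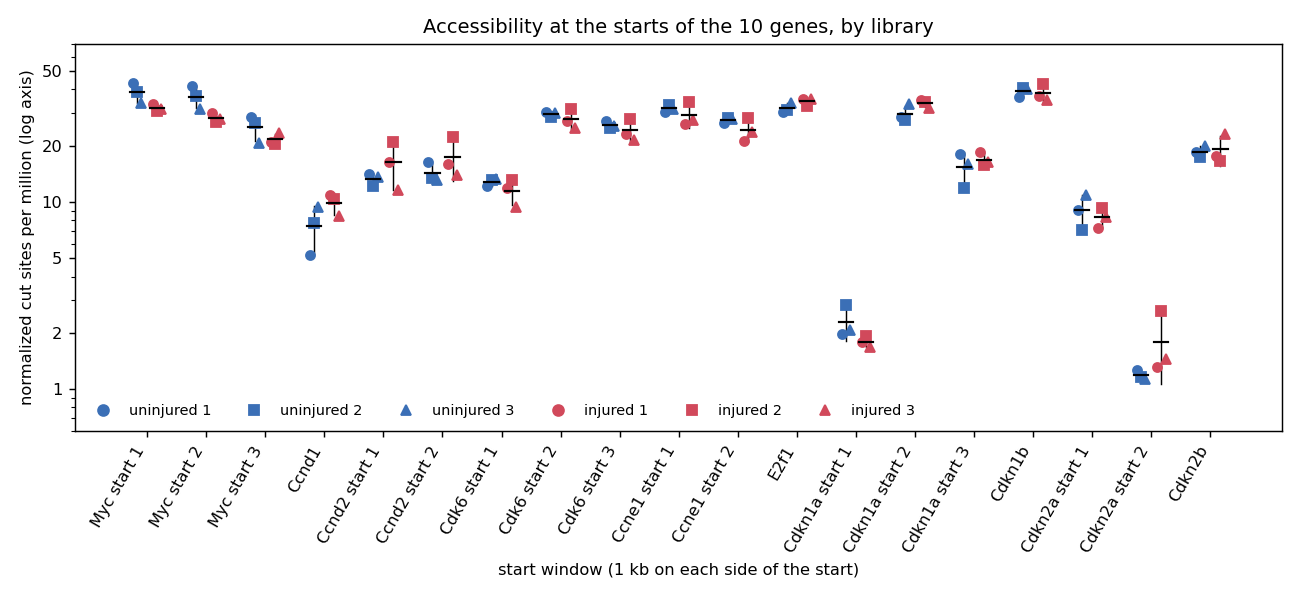
CPM (log axis) in the window 1 kb on each side of each start, for 3 uninjured (blue) and 3 injured (red) libraries, with a symbol for each replicate. Black bars are group means and thin lines 1 SD. The groups overlap or nearly touch at most starts, and the injured libraries lie below the uninjured ones at Myc starts 1 and 2.

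Myc encodes a transcription factor that promotes growth and division. It has 3 annotated coding starts on chromosome 15 whose windows overlap, so they share cut sites. At the second, at chr15:61985922, uninjured replicates 1 to 3 had 41.5, 36.7 and 31.6 CPM and injured replicates had 30.0, 26.8 and 27.8. Each injured library lay below all uninjured ones. The means were 36.6 ± 4.93 and 28.2 ± 1.68 (SD, n = 3), a log2 difference of -0.37 ± 0.10 (SE) that missed the threshold with an adjusted p of 0.0542 in edgeR's test. At the first start, at chr15:61985391, the values were 43.5, 38.9 and 33.9 before injury and 33.4, 30.6 and 31.5 after, again without overlap, with a log2 difference of -0.28 ± 0.093 and an adjusted p of 0.108 in edgeR's test. The lowest uninjured and the highest injured library were close at that start. At the last of them, means of 25.2 and 21.7 CPM overlapped.

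The calls at these 2 windows turned with how the libraries were treated. With the replicate number as a block, both were called lower, at edgeR adjusted p of 0.0290 for the first and 0.0086 for the second start. Without the shared barcodes, which also leaves out the deepest barcode of injured replicate 2, the second was called, at 0.0459. Without uninjured replicate 3 both were, at 0.0398 and 0.0145. In the fits that left out any other single library neither was called. With no filter on low counts the second was called, at 0.0333 in edgeR's test. All 3 Myc starts were called lower under scaling on total cut sites, at edgeR adjusted p of 0.0074, 0.0042 and 0.0438, where 17.8% of all windows were lower, and under scaling on bins (log2 -0.77, -0.86 and -0.69), where 43.5% were. The start windows most like the second Myc start over the 6 libraries, among 16127 with a mean of at least 5 CPM, belonged to Amotl2, Pan2 and Cfap126, with Pearson r of log2(CPM + 1) of 0.997 for each.

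The surroundings of Myc were divided. Of 190 open tiles tested there, 15 were higher after injury and 6 lower, while 4.78% of the 413983 tiles tested in the genome were higher and 1.49% lower (6.27% in all). A tile counted as open when its mean level reached 5 times the median tile's. Of the 15, 13 lay inside Pvt1, a long noncoding RNA gene downstream of Myc at chr15:62037986-62378096, at 58.4 to 343 kb from the first Myc start. Another 2 lay upstream in the noncoding gene D030024E09Rik. Pvt1 held 93 tested tiles in all, of which 3 were lower.

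Of the Myc tiles, the one with the smallest p, chr15:62321001-62321500, was in an intron of Pvt1, 336 kb downstream of the first Myc start. Its cut sites numbered 3, 8 and 2 before injury, for replicates 1 to 3, and 350, 77 and 95 after it. Injured replicate 1 was the highest. On the normalized scale this was 0.202, 0.250 and 0.0627 CPM against 9.04, 3.74 and 2.60, a log2 difference of 4.91 ± 0.61 with an adjusted p of 0.00275 in edgeR's test. The injured cut sites came from 158, 39 and 39 cells, and no cell gave more than 6.

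A second Pvt1 intron tile, chr15:62287001-62287500, had 3, 29 and 17 cut sites before injury and 465, 148 and 142 after. Its levels of 0.202, 0.908 and 0.533 CPM rose to 12, 7.18 and 3.89, a log2 difference of 3.70 ± 0.49 (edgeR adjusted p = 0.00318). Nearer to Myc, 166 kb downstream, chr15:62151501-62152000 was already partly open, at 1.34, 2.13 and 1.41 CPM, and rose to 14.0, 10.9 and 5.01 (log2 2.59 ± 0.36, edgeR adjusted p = 0.00351). None of these groups overlapped. In each of the 3 tiles injured replicate 1 was highest and injured replicate 3 lowest.

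In the other direction, the tile that holds the second Myc start, and so shares cut sites with the windows above, fell. It is singled out here after its values were seen, because it is the only called tile within 1 kb of a start of the 10 genes. In chr15:61985501-61986000, in a Myc exon, the mean fell from 11.9 ± 2.14 to 7.65 ± 0.429 CPM (log2 -0.64 ± 0.17, edgeR adjusted p = 0.0428), with 210, 378 and 314 cut sites before and 313, 149 and 278 after. That call was lost in DESeq2's test, at an adjusted p of 0.0892, and in edgeR's test without uninjured replicate 1 (0.240), uninjured replicate 2 (0.176), injured replicate 1 (0.0843) or injured replicate 2 (0.198). The count of higher tiles around Myc ranged from 4, without injured replicate 2, to 31, without injured replicate 3. Over all tiles those fits called 1.09% and 7.43% higher. The count was 6 without uninjured replicate 1 (beside 1.93% of all tiles) or injured replicate 1 (1.50%), and 9 without uninjured replicate 2 (2.21%). The count of lower tiles was 0 without any one of uninjured replicates 1 and 2 and injured replicates 1 and 2. Those fits called 0.128% to 0.586% of all tiles lower. Scaling on bins gave 9 higher and 13 lower tiles around Myc, beside 3.24% and 3.90% of all tiles. With the replicate block 19 were higher and 8 lower, beside 5.61% and 2.50%.

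**Figure D2:**
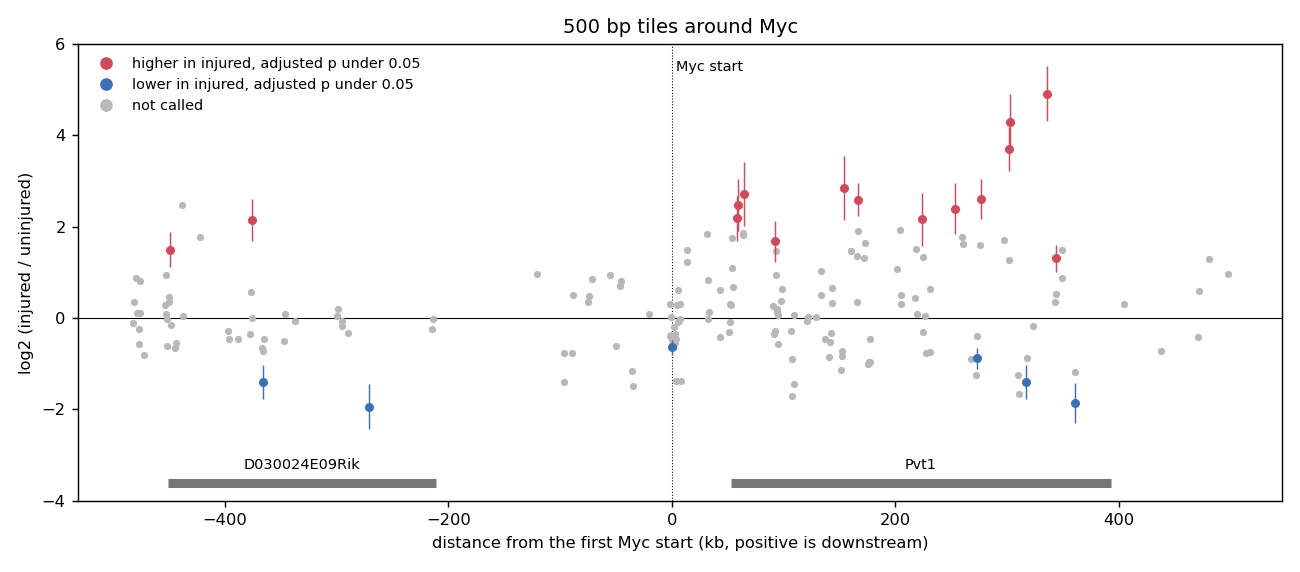
Log2 difference between injured and uninjured libraries for each tested 500 bp tile against its distance from the first Myc start in kb, with the 2 flanking noncoding genes as grey bars. Red tiles (15) were called higher, blue (6) lower and grey were not called. Lines on called tiles are 1 SE. Most red points lie over Pvt1, and the blue point at 0 is the tile over the Myc start.

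The D-type cyclins carry mitogenic signals to the cell cycle machinery. Ccnd1 had 7.45 ± 2.14 CPM at its single start before injury and 9.91 ± 1.34 after, a log2 difference of 0.39 ± 0.22 that was not called (adjusted p of 0.310 in edgeR's test). By library these were 5.20, 7.70 and 9.45 against 11, 10.4 and 8.40, which overlap. Its sign turned when libraries were scaled on 10 kb bins.

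Around Ccnd1, 3 of 53 tiles were higher (5.66%) and 0 lower, beside 4.78% and 1.49% of all tiles. Upstream, 24.4 kb from the start and between genes, chr7:144964001-144964500 had 2, 5 and 6 cut sites before injury and 163, 52 and 41 after. Its 0.134, 0.157 and 0.188 CPM rose to 4.21, 2.52 and 1.12, a log2 difference of 3.97 ± 0.57 (edgeR adjusted p = 0.00403). The neighbouring tile rose with it, from 2, 0 and 2 cut sites to 30, 27 and 14 (log2 3.81 ± 0.86, edgeR adjusted p = 0.0245). A further one, 42.9 kb upstream, rose from a mean of 0.446 ± 0.388 to 2.27 ± 0.83 CPM (log2 2.31 ± 0.58, edgeR adjusted p = 0.0396). Both of the last were lost without any one of uninjured replicates 1 and 2 and injured replicates 1 and 2, at adjusted p of 0.0526 to 0.156 in edgeR's test, while the first held in each of these fits. The one at 42.9 kb was also lost under scaling on bins, at 0.0753. The neighbouring tile was not tested once the shared barcodes were removed, since it no longer passed the filters. Higher tiles around Ccnd1 numbered 7 without uninjured replicate 3 (beside 4.70% of all tiles) and 5 without injured replicate 3 (7.43%). The replicate block gave 3 higher and 1 lower, beside 5.61% and 2.50% of all tiles. Scaling on bins gave 2 higher and 1 lower, beside 3.24% and 3.90%.

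Ccnd2, a cyclin of the same class, had 2 starts, which had 13.3 and 14.3 CPM before injury and 16.3 and 17.4 after, with overlapping libraries and log2 differences of 0.29 ± 0.18 and 0.28 ± 0.16. Injured replicate 2 was the highest at both, at 21 and 22.2 CPM. The first was called higher when injured replicate 3 was left out (log2 0.48, edgeR adjusted p = 0.0481), and both signs turned under scaling on bins. Of 38 tiles around it, 0 were called by edgeR or by DESeq2's test. The most open, in an exon shared by Platr31 and Tigar, holds the Tigar start, 200 bp from its middle. It lies 42.4 kb from the first Ccnd2 start. It had 10.8 ± 2.12 and 14.0 ± 0.68 CPM (edgeR adjusted p = 0.216). That tile was called higher when uninjured replicate 3 was left out (0.0479). No test of Ccnd1 against Ccnd2 was made.

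Cdk6 is a kinase that D-type cyclins activate. Its 3 start windows, not called, had levels of 12.8, 29.7 and 25.8 CPM before injury and 11.5, 27.8 and 24.2 after, with overlapping groups at each and log2 differences of -0.17 to -0.09. All 3 were called lower under scaling on bins (log2 -0.67, -0.60 and -0.60, edgeR adjusted p of 0.0040, 0.0025 and 0.0027). Around it, 11 of 86 tiles (12.8%) were higher and 1 lower, beside 4.78% and 1.49% of all tiles tested in the genome. The 11 tiles formed 6 separate stretches. Scaling on bins gave 9 higher and 5 lower, beside 3.24% and 3.90% of all tiles. The count of higher tiles was 5 with uninjured 2, injured 1 or injured 2 left out, 6 without uninjured replicate 1 and 15 without injured replicate 3.

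A run of 3 adjacent tiles 39.7 to 40.7 kb upstream of Cdk6, between genes, rose together. The middle one, chr5:3301001-3301500, whose middle is printed above, had 7, 14 and 21 cut sites before injury and 315, 150 and 131 after. Its levels were 0.471, 0.438 and 0.658 CPM against 8.14, 7.28 and 3.59, the smallest p in any of the loci (log2 3.57 ± 0.38, edgeR adjusted p = 0.00241). The injured cut sites came from 171, 68 and 58 cells.

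Further tiles opened inside the last part of the gene. In an intron 153 kb from the first start, chr5:3494001-3494500 rose from 4, 11 and 4 cut sites to 144, 79 and 55 (log2 3.61 ± 0.52, edgeR adjusted p = 0.0041). Its neighbour, chr5:3494501-3495000, rose from 0.336, 0.250 and 0.784 CPM to 7.16, 5.73 and 2.38 (log2 3.42 ± 0.51, edgeR adjusted p = 0.00455). The groups were apart in both. The start nearest to them is that of Fam133b, 49.6 and 49.1 kb away, and 8 of the 11 higher tiles around Cdk6 were nearest to that gene, so the tiles cannot be assigned to Cdk6 by distance. The single lower tile, in an intron at 60.3 kb, went from 9, 30 and 22 cut sites to 9, 1 and 6 (log2 -2.21, edgeR adjusted p = 0.0450). No tile around Cdk6 was called lower without any one of uninjured replicates 1 and 2 and the injured replicates. Over all tiles those fits called 0.128% to 2.16% lower.

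Ccne1 encodes cyclin E1, the partner of Cdk2 at the start of DNA replication. At its starts, means of 31.7 and 27.6 CPM before injury stood beside 29.4 and 24.4 after, with overlapping libraries. Both were called lower under scaling on bins (log2 -0.61 and -0.67, edgeR adjusted p of 0.0020 and 0.0011). Downstream, 30.3 kb from the first start and between genes, chr7:38077001-38077500 had 1, 10 and 8 cut sites in uninjured libraries and 159, 85 and 82 in injured ones. That is 0.0672, 0.313 and 0.251 CPM against 4.11, 4.13 and 2.25, and the log2 difference was 3.89 ± 0.48 (edgeR adjusted p = 0.0027). The tile beside it also rose, from 0.278 ± 0.157 to 1.62 ± 0.692 CPM (log2 2.51 ± 0.57, edgeR adjusted p = 0.0241), a call lost without any one of uninjured replicates 1 and 2 and injured replicates 1 and 2, at edgeR adjusted p of 0.0838 to 0.129. These 2 were the called tiles among 33 (6.06%, beside 4.78% of all tiles higher), and no other coding gene lies in that locus. Without injured replicate 3 there were 4 higher and 1 lower, beside 7.43% and 2.16% of all tiles. Scaling on bins gave 2 higher and 3 lower, beside 3.24% and 3.90%. The replicate block, a tile grid shifted by 250 bp and tiles open at 10 times the median each gave 2 higher and 1 lower. Over all tiles these called 4.78% to 6.36% higher and 1.50% to 3.50% lower.

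E2f1, the activator released from the retinoblastoma protein, had 30.3, 31.2 and 34.0 CPM before injury and 35.7, 32.8 and 35.4 after. The highest uninjured library lay above the lowest injured one, and the log2 difference was 0.12 ± 0.081 (adjusted p of 0.414 in edgeR's test), with a sign that turned under scaling on bins and on total cut sites. Of 44 tiles around it edgeR called 0 and DESeq2's test 1, in a locus that holds 7 other coding genes. Leaving out injured replicate 3 gave 2 higher and 2 lower, and leaving out uninjured replicate 3 gave 1 higher. Over all tiles those fits called 7.43% and 4.70% higher, and 2.16% and 1.61% lower. Of these 44 tiles, 10 were nearest to the E2f1 start. The most open tile, in an exon of Pxmp4, holds the Pxmp4 start, 42 bp from its middle. It lies 33.9 kb upstream of the E2f1 start. It had 28.1 ± 1.78 CPM before injury and 21.8 ± 2.00 after, without overlap, at an adjusted p of 0.080 in edgeR's test. It was called lower under scaling on bins (0.0436) or total cut sites (0.0471), among tiles open at 10 times the median (0.0300) and with the replicate block (0.0303).

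**Figure D3:**
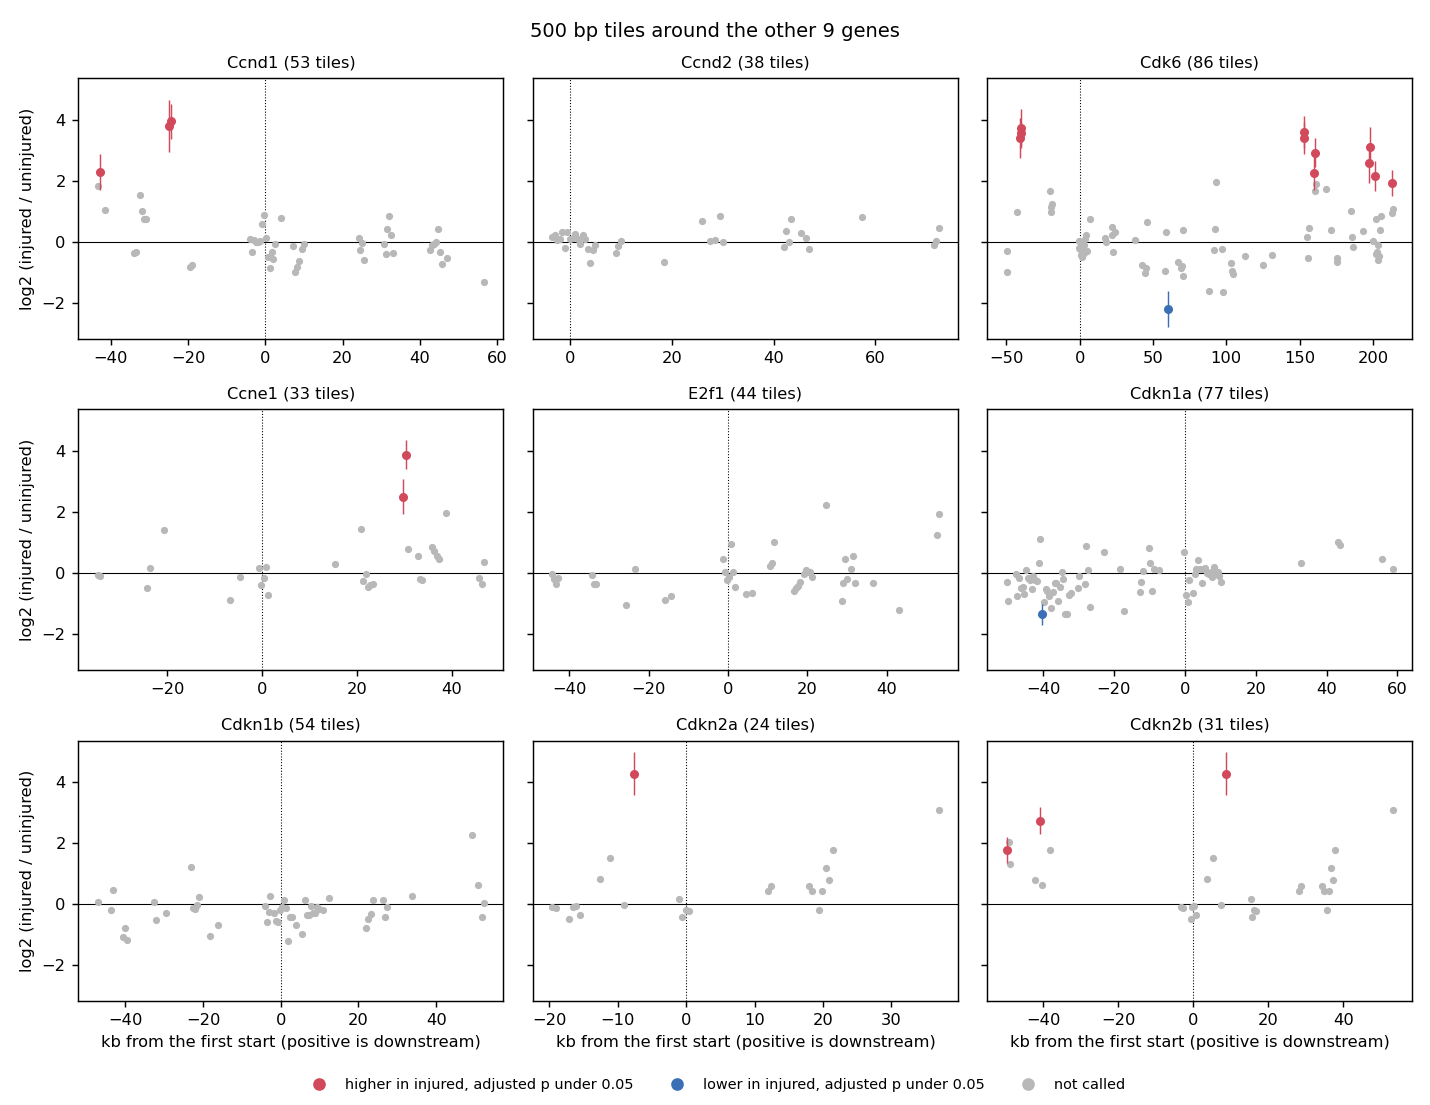
Log2 difference between injured and uninjured libraries for each tested 500 bp tile against its distance from the first start in kb, for the other 9 genes. Red tiles were called higher, blue lower and grey not called, and lines on called tiles are 1 SE. The horizontal scale differs between panels. Red points stand in the panels of Ccnd1, Cdk6, Ccne1, Cdkn2a and Cdkn2b. All 24 tiles of the Cdkn2a panel are also in the Cdkn2b panel, and the point at 4.29 in both is 1 tile.

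Of the inhibitors, Cdkn1a and Cdkn1b encode p21 and p27, which bind cyclin and kinase complexes. Cdkn1a, a target of p53, had 28.4, 27.3 and 33.3 CPM at its most open start before injury and 35.0, 34.3 and 31.9 after (log2 0.18 ± 0.092, adjusted p of 0.266 in edgeR's test). The libraries overlapped, and scaling on bins turned the sign. Its start 3 had 15.4 and 16.8 CPM. The first, far less open, had 2.28 ± 0.460 and 1.80 ± 0.118 CPM without overlap, and was not called (log2 -0.35 ± 0.32). Of 77 tiles, 0 were higher (4.78% in the genome) and 1 was lower (1.49%). That tile, chr17:29050501-29051000, between genes 40.2 kb upstream, fell from 83, 136 and 88 cut sites to 83, 23 and 55, or from 4.20 ± 1.41 to 1.59 ± 0.519 CPM (log2 -1.37 ± 0.35, edgeR adjusted p = 0.0392). It was lost without uninjured replicate 1 (0.192), uninjured replicate 2 (0.137) or injured replicate 2 (0.187), and its nearest start is that of Srsf3. Around Cdkn1a there were 1 higher and 2 lower without injured replicate 3 (7.43% and 2.16% of all tiles). Without uninjured replicate 3 there were 1 higher and 1 lower (4.70% and 1.61%). The replicate block gave 0 higher and 2 lower (5.61% and 2.50%).

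Cdkn1b had the most open start of the 10 genes, at 36.6, 40.5 and 40.5 CPM before injury and 36.9, 42.8 and 35.2 after. These overlap throughout, with a log2 difference of -0.04 ± 0.088. With all 6 libraries and the scaling used here, neither its start nor any of the 54 tiles around it passed in edgeR's or DESeq2's test. Scaling on bins called the start lower (log2 -0.53, edgeR adjusted p = 0.0059) and 1 tile lower, and leaving out injured replicate 3 gave 1 tile higher and 2 lower. The log2 difference of the median tile was -0.21 there, -0.19 around Cdkn1a, 0.29 around Cdkn2a and 0.58 around Cdkn2b, beside 0.0004 over all tiles tested. All 24 tiles around Cdkn2a are also among the 31 around Cdkn2b.

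Cdkn2a and Cdkn2b lie side by side on chromosome 4 and encode proteins that accumulate in ageing and senescent cells. Cdkn2a has a start for the Arf protein and a second for the kinase inhibitor p16, and Cdkn2b encodes p15. The Arf start had 9.12, 7.10 and 10.9 CPM before injury and 7.32, 9.26 and 8.34 after, which overlap, and was called lower under scaling on bins (log2 -0.62, edgeR adjusted p = 0.0262). The p16 start was nearly closed in both groups, at 20, 39 and 38 cut sites before and 50, 52 and 48 after. Its 1.27, 1.16 and 1.14 CPM were all below the injured 1.32, 2.63 and 1.45, but the log2 difference of 0.58 ± 0.39 was not called (adjusted p of 0.419 in edgeR's test), and injured replicate 2 alone was far from the others. Cdkn2b had 18.6 ± 1.26 and 19.1 ± 3.54 CPM.

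Between the 2 genes, 7.6 kb upstream of the Arf start and 8.8 kb downstream of the Cdkn2b start, 1 tile opened from almost nothing. In chr4:89302001-89302500 there were 1, 4 and 1 cut sites in uninjured libraries and 94, 33 and 24 in injured ones. The normalized levels were 0.0672, 0.125 and 0.0314 CPM against 2.43, 1.60 and 0.658 (log2 4.29 ± 0.70, edgeR adjusted p = 0.00646). It was the single called tile of 24 around Cdkn2a (4.17%, beside 4.78% of all tiles higher). There were 2 higher without uninjured replicate 2, uninjured replicate 3 or injured replicate 3 (2.21%, 4.70% and 7.43% of all tiles).

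Around Cdkn2b, 3 of 31 tiles were higher, the shared one included (9.68%, beside 4.78% of all tiles). The other two lie upstream, between genes. At 40.7 kb, chr4:89351501-89352000 rose from 0.403, 0.501 and 0.282 CPM to 2.69, 3.83 and 1.56 (log2 2.75 ± 0.45, edgeR adjusted p = 0.00657), a call that missed the threshold at 0.0507 without injured replicate 2. At 49.7 kb, chr4:89360501-89361000 rose from 1.55 ± 1.09 to 5.47 ± 1.65 CPM (log2 1.76 ± 0.43, edgeR adjusted p = 0.0333), and was lost without any one of uninjured replicates 1 and 2 and injured replicates 1 and 2, at 0.0961 to 0.156 in edgeR's test, and under scaling on bins, at 0.0726. Without uninjured replicate 3 there were 7 higher tiles around Cdkn2b, and without injured replicate 3 there were 6. Over all tiles those fits called 4.70% and 7.43% higher.

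**Figure D4:**
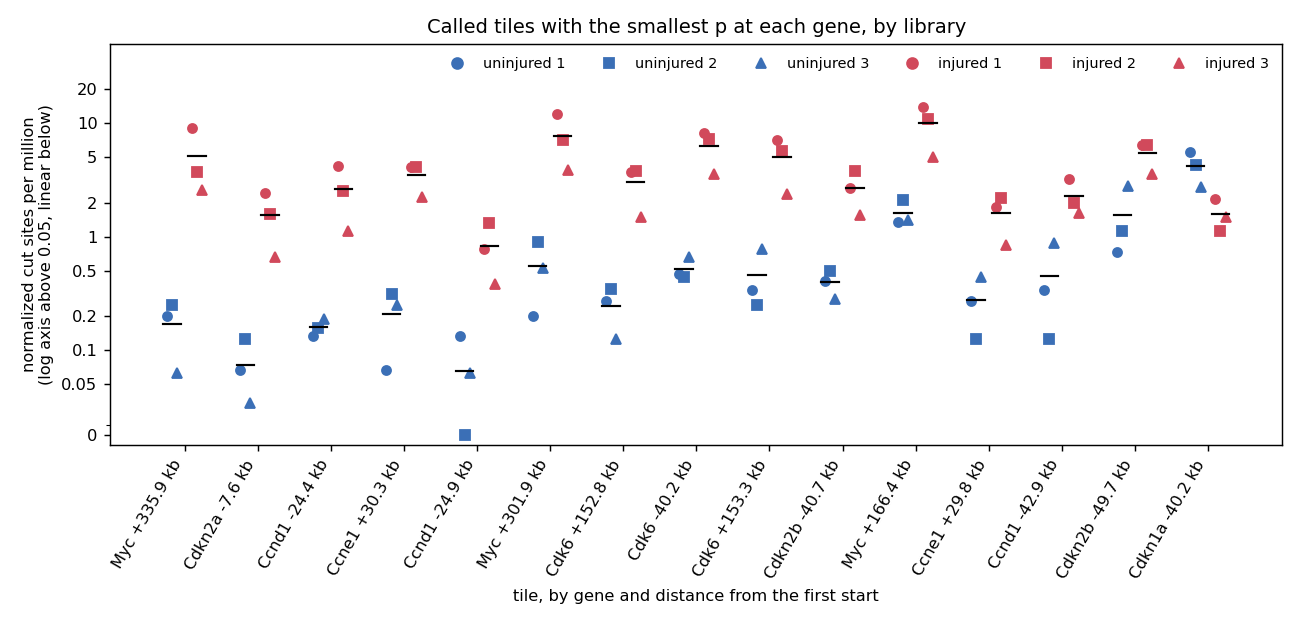
CPM (log axis above 0.05, linear below) in the called tiles with the smallest p at each gene, up to 3 a gene, for 3 uninjured (blue) and 3 injured (red) libraries. Black bars are group means, and labels give the distance from the gene's first start in kb. In all but the last tile the 3 injured libraries lie above the 3 uninjured ones, and injured replicate 3 is the lowest of the injured.

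Counted over all 10 genes, 606 tiles were tested, 24 of them shared by Cdkn2a and Cdkn2b and counted once. Of these 34 were higher (5.61%, against 4.78% of all tiles) and 8 lower (1.32%, against 1.49%), so the share called was near that of the genome. The median log2 difference was -0.03, against 0.0004 for all tiles tested. Groups did not overlap at 145 of the 606 (23.9%, against 25.0%). The higher tiles formed 25 separate stretches, with log2 differences of 1.30 to 4.91 and a median uninjured level of 0.337 CPM. Some had uninjured means under the 0.230 needed over all 6 libraries, such as chr4:89302001-89302500 at 0.0746. These were tested only because the injured libraries were high. Their low level before injury and their large rise are thus partly set by the filter. Levels were lowest in injured replicate 3, among the injured libraries, in 32 of the 34. That library also had the highest summed level of olfactory sensory neuron markers, and the part of this in the result was not tested.

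The counts differed with the library that was dropped, as did the share called of all tiles in the same fit, given in brackets. They came to 16 higher tiles and 0 lower without uninjured replicate 1 (1.93% and 0.166%). Without uninjured replicate 2 they were 19 and 0 (2.21% and 0.185%). Without uninjured replicate 3 they were 45 and 9 (4.70% and 1.61%). Dropping an injured replicate gave 15 and 1 for replicate 1 (1.50% and 0.586%) and 12 and 0 for replicate 2 (1.09% and 0.128%). For injured replicate 3 it gave 65 and 14 (7.43% and 2.16%). These fits tested 665 to 687 tiles around the 10 genes. Without the shared barcodes the counts were 35 and 10. With only barcodes that had at least 20% of their cut sites in open tiles they were 33 and 8. Both alternatives remove the deepest barcode above. Scaling on 10 kb bins gave 24 and 26, with 13399 higher and 16166 lower in the genome. The replicate block gave 39 and 14, beside 5.61% and 2.50% of all tiles. It kept 33 of the 34 higher and 6 of the 8 lower tiles. The 9 named tiles that passed in each alternative run on the same tiles were the 3 in Pvt1, the first one at Ccnd1, the first at Ccne1, all 3 named at Cdk6 and the one between Cdkn2a and Cdkn2b.

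Measured from the middle of the tile, all 34 higher tiles lay over 1 kb from any coding start. The nearest was 1.08 kb from the Fam133b start, and part of that tile lies within 1 kb. Of the 505 tested tiles at such distances in these loci 6.73% were higher, beside 5.42% of 352650 in the genome. Within 1 kb of a coding start, 0 of 101 were higher and 1 was lower, beside 1.11% and 2.52% of 61333. No barcode gave more than 12 cut sites to a called tile in any library.

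The AP-1 motif printed above was found in most of the higher tiles, as it was in most higher tiles of the genome. TGANTCA, which reads the same on both strands, was in 23 of the 34 higher tiles (67.6%), in 0 of the 8 lower and in 101 of the 564 not called (17.9%). Over all tiles of this length tested it was in 20.2%, and in 60.7% of all higher and 7.14% of all lower tiles. The other letters searched on both strands did not stand out in this way. The TEAD motif GGAATG was in 10 of the 34, against 25.9% of all tiles, and the RUNX motif TGNGGT in 23, against 68.1%. The E-box CACGTG bound by Myc was in 2, against 7.65%, and the E2F motif TTTNGCGC in 0, against 0.814%. The NF-kB motif was in 2 (6.19% of all tiles) and the p53 family motif in 0 (0.0292%).

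The lists of other cell cycle genes were drawn up with earlier results of these data known. A list's share above that of all windows is thus no independent result. They held 72 genes beside the 10, with 106 tested start windows. Of these 1 was higher and 5 were lower, beside 2.42% and 1.81% of all windows, and the median log2 difference was -0.11. Cdt1, which loads the replicative helicase onto DNA, rose from 20.7 ± 2.50 to 29.9 ± 3.50 CPM (log2 0.52, edgeR adjusted p = 0.0221). The lists of the retinoblastoma and E2F genes (20 windows), of the Myc network (19) and of mitosis (10) had 0 called in edgeR's test without the replicate block, and so did the D-type cyclins with their kinases (12) and the CDK inhibitors (12), the last with a median of -0.08. These list counts include the windows of the 10 genes where they belong to a list.

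Of the 5 lower windows, 4 belonged to the list of p53 and growth arrest genes, in which 4 of 21 windows fell and 0 rose, beside 1.81% and 2.42% of all windows, with a median of -0.18. Btg2, which restrains entry into S phase, fell from 64.4 ± 6.31 to 42.2 ± 5.64 CPM (log2 -0.61, edgeR adjusted p = 0.00645). Tob1, its relative, fell from 57.4 to 45.2 (log2 -0.34, edgeR adjusted p = 0.0420). Foxo3, a transcription factor of quiescent cells, fell from 58.7 to 47.3 (log2 -0.31, edgeR adjusted p = 0.0302). Mdm2, the ligase that degrades p53, fell from 38.8 to 30.8 (log2 -0.33, edgeR adjusted p = 0.0409). Mdm2 restrains p53 rather than the cell cycle. The other lower window was that of Cdk2, the kinase of cyclin E, at 25.9 and 19.8 CPM (log2 -0.38, edgeR adjusted p = 0.0328). The 6 calls became 12 with the replicate block, 11 of them lower, in a fit that called 4.64% of all windows higher and 5.84% lower. The calls that the block added were all lower: Gadd45a, Gadd45b, Ccng2 and Sesn1, which took the p53 and growth arrest list from 4 to 8, the CDK inhibitor Cdkn2d (log2 -0.23, edgeR adjusted p = 0.0224) and Cdc25a, of the replication and S phase list. Beside these 12, the block called the 2 Myc windows of the Myc network list. In fits without the block, the number of calls was 1 without uninjured replicate 1 or injured replicate 1. It was 2 without uninjured replicate 2 and 0 without injured replicate 2, where Btg2 stood at an adjusted p of 0.0521 in edgeR's test. Over all windows these fits called 0.503% to 0.943% higher and 0.241% to 0.367% lower, against 2.42% and 1.81% with all libraries. Cdt1 was lost without uninjured replicate 1 or injured replicates 1 or 2, the other lower windows without each of uninjured replicates 1 and 2 and injured replicates 1 and 2, Tob1 also without uninjured replicate 3 and Mdm2 without injured replicate 3, at adjusted p of 0.0551 to 0.151 in edgeR's test. Mdm2 was also lost among barcodes with at least 20% of their cut sites in open tiles (0.0579), at the 5′-most start of each gene (0.0563) and in 500 bp windows (0.104, all edgeR's adjusted p), and Tob1 at that start and in those windows (0.0545 and 0.0824). Cdt1 was also lost in 500 bp windows (edgeR adjusted p = 0.133) and under scaling on bins (0.904). Scaling on bins gave 80 lower and 0 higher, where 43.5% of all windows were lower.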

How the data were processed

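The authors deposited a fragments file per library, which lists each fragment's position, its cell barcode and a count of the read pairs that gave it. The submitters' processing notes name Cell Ranger 2.0.0 and the build mm10, while per the file headers of the peak matrices, not used here, the software version was 1.2.0. Whether fragment ends were shifted for the transposase is not given in the sources used here. From these files, both ends of each fragment were counted as cut sites, summed per library over barcodes with at least 2000 fragments, since cells are not replicates. The barcodes' doublets were not called or removed. The depth, 14825320 to 44875242 cut sites a library, bounds the precision at tiles with few cut sites.

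Starts were those of protein-coding transcripts of protein-coding genes in GENCODE M21 (GRCm38), merged within 500 bp, and 500 bp tiles covered the genome. Windows of 1000 bp each side of a start, and open tiles (mean CPM at least 5 times the median tile), were filtered with filterByExpr, scaled by TMM and fitted across the genome with edgeR 4.0.16 (quasi-likelihood, robust, 3 libraries against 3) in R 4.3.3. Benjamini-Hochberg adjustment ran over all features tested, with a threshold of 0.05. DESeq2 1.42.0 was an alternative test, beside other scalings, filters, windows and leaving out each library. Values are CPM from the edgeR scaling, ± is the SD over 3 libraries or the SE of a log2 difference, and the log2 difference of a tile with few cut sites depends on edgeR's prior count. The fit was tested on simulated data.

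Replicate numbers come from the sample titles. Same-numbered libraries deviated together over start windows (r = 0.200, 0.402 and 0.339 for replicates 1 to 3). The main fit of 3 libraries against 3 leaves this pairing out. The fit with the replicate block, which uses it, is therefore given beside the main fit. Over tiles r was 0.0587, 0.269 and 0.267. The main fit of the tiles is unpaired too, with the block as an alternative.

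Text names all 10 genes with every start, up to 3 called tiles a gene by smallest p (where none passed, the most open tile), list genes that passed, and the 3 windows most like the start with the smallest p. Genes and lists were chosen with earlier results of these data known. The sequences of 2 further tiles are not reported here.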

Additional observations from a re-analysis of the deposited data

How the results depend on the processing

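The number of the 19 start windows called was 0, and 10 under scaling on 10 kb bins, 3 under total cut sites, 1 with no filter on low counts, 1 in DESeq2's test, 2 with the replicate block and 1 without the shared barcodes, an alternative chosen after seeing the data. Leaving out each library gave 0 to 2. Of all windows, bins called 1.91% higher and 43.5% lower, and total cut sites 2.89% and 17.8%. The replicate block called 4.64% and 5.84%, and 500 bp windows 2.59% and 1.35%. The 6 calls among the other cell cycle genes became 80 under bins, 38 under total cut sites, 3 with 500 bp windows and 12 with the replicate block. They became 0 to 7 when each library was left out, in fits that called 0.503% to 4.11% of all windows higher and 0.241% to 3.75% lower. For tiles, 34 higher and 8 lower became 12 to 65 and 0 to 14 on leaving out each library. Over all tiles, those fits called 1.09% to 7.43% higher and 0.128% to 2.16% lower. Around the 10 genes the lower count was 26 under bins (4.29% of the tiles tested there, beside 3.90% of all tiles). It was 15 with tiles open at 10 times the median (3.42% beside 3.50%). The replicate block gave 14 lower (2.31% beside 2.50%) and 39 higher (6.44% beside 5.61%). Over tiles, replicates 2 and 3 correlated best with their own number (r = 0.269 and 0.267), while injured replicate 1 correlated best with uninjured replicate 2 (r = 0.239). The main fit has no block for tiles or for start windows, and the block was run as an alternative for both.

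Signs were followed at the start windows of the listed genes, the called windows of the other cell cycle genes and the named tiles. Among these they turned only at start windows that were not called. Other tiles and windows were not followed in this way. Under bins the log2 differences were -0.36 at E2f1, -0.43 at Cdkn2b, -0.23 and -0.24 at the first and second Ccnd2 starts, -0.10 at Ccnd1, and -0.31 and -0.36 at the Cdkn1a starts 2 and 3. Under total cut sites they were -0.041 at E2f1, -0.12 at Cdkn2b and -0.024 at Cdkn1a start 3. With 500 bp windows they were 0.035 at the second Cdk6 start, 0.0035 at Cdkn1b, 0.12 at the second Ccne1 start and 0.33 at the first Cdkn1a start. Leaving out each library in turn gave ranges that crossed 0 at 4 windows: -0.13 (without injured replicate 3) to 0.12 at Cdkn2b, -0.022 (without uninjured replicate 2) to 0.26 at Cdkn1a start 3, -0.28 to 0.035 (without uninjured replicate 3) at the Arf start of Cdkn2a, and -0.13 to 0.0061 (without injured replicate 3) at Cdkn1b. Without uninjured replicate 2 the Cdkn2b value was -0.0097. The cause was not tested.

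Precision was lower for tiles than for start windows, with a median SE of 0.517 against 0.180. In simulated counts, a log2 change of 2 was called in 53 of 200 tiles and one of 1 in 3 of 200. For start windows it was 170 and 117 of 200. The simulated spread was the fitted trend, not that of each tile. Only these few of 413983 tiles were changed, which makes the adjustment stricter than in the data, where 6.27% of tiles were called. The simulated rates are thus not those of the tests above. An uncalled tile is still not shown to be unchanged.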
